A study of Macaca mulatta with 9 samples.

Results

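The 10 genes described here encode surface receptors of blood platelets and the tubulin of the platelet cytoskeleton: GP6, GP9, GP1BA, GP5, ITGA2B, ITGB3, P2RY12, CLEC1B, TREML1 and TUBB1. They were chosen by name for their known roles in platelets and megakaryocytes, and all 10 were found among the 24371 genes of the deposited table. RNA was sequenced from whole blood of 9 rhesus macaques, 3 per group, after an injection of PBS as the vehicle, of extracellular vesicles (EVs) named FBMSC, or of EVs from antler blastema progenitor cells (ABPC). The groups are called PBS, FBMSC_EV and ABPC_EV. Every animal is labelled wild type, the assignment to groups was random according to the series design, and the sources used here do not give dose, time after injection or age. The sample descriptions name the PBS animals Old and spell the FBMSC group FBMC_EVs. Each library came from 1 animal, and the blood was not sorted, so that fewer platelets and less RNA per platelet cannot be told apart.

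Platelets are cell fragments without a nucleus that megakaryocytes shed into the blood, and they carry over most of their RNA from the megakaryocyte. At a wounded vessel, a platelet first tethers to von Willebrand factor through the GPIb-IX-V complex and is then activated by collagen through GP6 and by ADP through P2RY12. Activation opens the fibrinogen-binding integrin formed by ITGA2B and ITGB3, which links platelets to each other. A ring of microtubules built with the platelet form of beta-tubulin, TUBB1, gives the resting platelet its disc shape and drives the extension of proplatelets from megakaryocytes.

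Results are given on a pair of scales because globin RNA took most of each library. The deposited scale is a per-million value corrected for gene length, in which all genes of a library share 1 fixed total. The scaled value divides it by the library's median-ratio factor, which brings the typical gene to the same level in all libraries. The 3 globin genes (HBB, HBA and HBA1) made up 88.2% to 92.7% of the per-million total in PBS, 82.3% to 87.6% in FBMSC_EV and 70.9% to 82.4% in ABPC_EV. The scaling factors followed the opposite order, at 0.326 to 0.757 in PBS, 0.945 to 1.19 in FBMSC_EV and 1.502 to 2.485 in ABPC_EV. Reads recovered from the values numbered 11.75 to 14.47 M (1 M is 1000000 reads) per library, of which 993 to 7603 belonged to the 10 genes. Of a list of 13 platelet and megakaryocyte markers that includes the 10 genes, 12 were analysed here and all 12 were above 0 in every library.

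Among the 10 genes, TUBB1 was the most abundant, with a mean scaled value of 15.2 over the 9 libraries and 40.1% of the genes' recovered reads. ITGA2B followed at 9.36 with 31.51% of the reads, then TREML1 at 6.33 with 13.2% and ITGB3 at 3.25 with 9.61%. GP9 (2.29) and CLEC1B (1.64) came next. P2RY12 (0.521), GP6 (0.447), GP1BA (0.416) and GP5 (0.292) lay below 1 on the same scale. Levels compared between genes here are per gene length. Neighbours in the order overlapped in their library ranges: TUBB1 spanned 3.61 to 33.8 scaled units and ITGA2B 3.85 to 19.8.

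**Figure D1:**
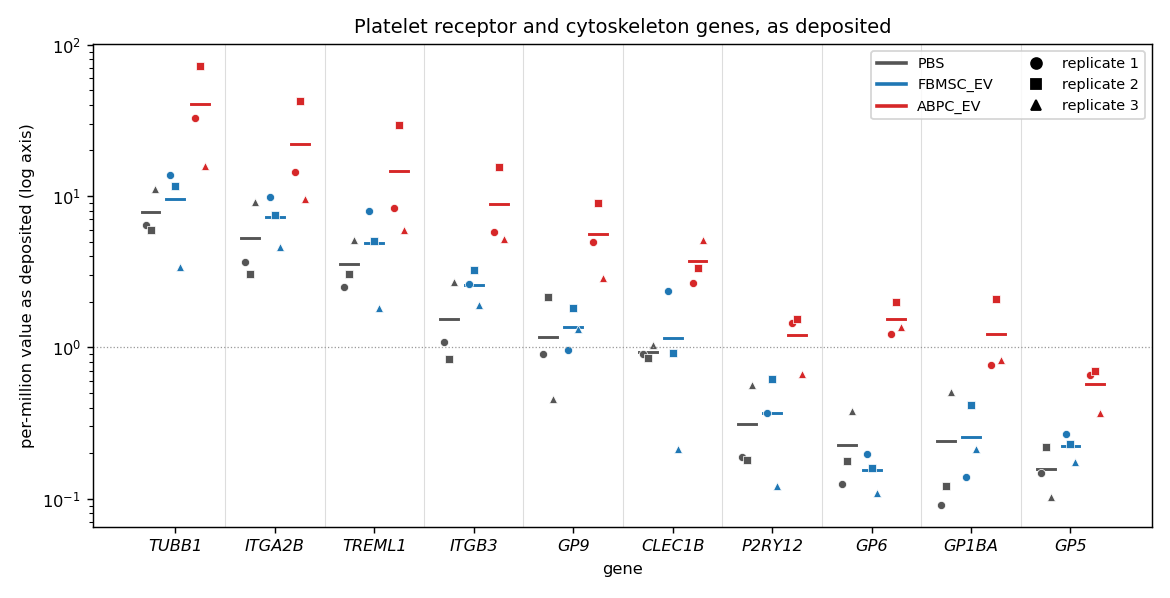
Deposited per-million values of the 10 genes (log axis), 1 point per library with the marker shape giving the replicate and a bar at each group mean. All 3 ABPC_EV libraries lie above all 3 PBS libraries for each of the 10 genes, and ABPC_EV replicate 2 is the highest library for 9 of them.

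GP6, the collagen receptor, signals through the Fc receptor gamma chain and starts platelet activation on exposed collagen. As deposited it stood at 0.125, 0.177 and 0.379 per-million units in PBS replicates 1 to 3, at 0.198, 0.160 and 0.110 in FBMSC_EV and at 1.23, 1.996 and 1.36 in ABPC_EV. After scaling, the same libraries read 0.383, 0.382 and 0.501 in PBS, 0.203, 0.134 and 0.116 in FBMSC_EV and 0.820, 0.933 and 0.549 in ABPC_EV. The scaled groups did not overlap in any pair, with ABPC_EV highest and FBMSC_EV lowest; as deposited, the PBS and FBMSC_EV libraries overlapped. No other of the 10 genes had scaled groups free of overlap in any comparison. These values rest on few reads: 4, 6 and 10 in PBS, 5, 4 and 3 in FBMSC_EV, and 30, 33 and 25 in ABPC_EV. The 95% exact Poisson intervals, which cover counting error only, were 1.09 to 10.2 reads for PBS replicate 1 and 0.619 to 8.77 for FBMSC_EV replicate 3. In ABPC_EV replicate 3 the interval was 16.2 to 36.9 reads. The read numbers in PBS and FBMSC_EV thus overlapped, and the division by scaling factors of 0.326 to 0.757 in PBS and 0.945 to 1.19 in FBMSC_EV lies between them and the separate scaled values.

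GP9, GP1BA and GP5 form the von Willebrand factor receptor together with GP1BB; GP1BA holds the ligand-binding site, GP9 is needed for surface display of the complex and GP5 is its loosely held part, cleaved by thrombin. GP9 was 0.899, 2.15 and 0.459 per-million units as deposited in PBS, 0.958, 1.81 and 1.33 in FBMSC_EV and 4.97, 8.98 and 2.89 in ABPC_EV. Its scaled values were 2.76, 4.63 and 0.607 in PBS, 0.985, 1.52 and 1.41 in FBMSC_EV and 3.31, 4.20 and 1.16 in ABPC_EV. The PBS libraries thus held both the highest and the lowest scaled GP9 value of the series.

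GP1BA as deposited measured 0.0911, 0.121 and 0.508 per-million units in PBS, 0.138, 0.419 and 0.213 in FBMSC_EV and 0.766, 2.08 and 0.827 in ABPC_EV. Scaled GP1BA was 0.279, 0.260 and 0.671, then 0.142, 0.352 and 0.226, then 0.510, 0.973 and 0.333 in the same order. PBS replicate 3 was high for GP1BA and low for GP9, and the ratio of GP9 to GP1BA ranged from 0.904 to 17.8 over the 9 libraries, although both proteins belong to 1 complex. Both extremes rest on few reads: 8 for GP9 in PBS replicate 3 and 7 for GP1BA in PBS replicate 2. Their 95% exact Poisson intervals were 3.45 to 15.8 and 2.81 to 14.4 reads. GP5 was 0.148, 0.221 and 0.103 per-million units in PBS, 0.268, 0.230 and 0.174 in FBMSC_EV and 0.654, 0.697 and 0.370 in ABPC_EV. Scaled GP5 values were 0.455, 0.476 and 0.136 in PBS, 0.276, 0.193 and 0.184 in FBMSC_EV and 0.436, 0.326 and 0.149 in ABPC_EV, with overlap between all groups. GP5 had the narrowest range of the 10 genes after scaling, 3.50-fold between its lowest and highest library.

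ITGA2B and ITGB3 encode the alpha and beta chains of the fibrinogen receptor; ITGB3 also pairs with another alpha chain in other cell types, while ITGA2B marks the megakaryocyte lineage. ITGA2B was 3.64, 3.06 and 9.10 per-million units as deposited in PBS, 9.81, 7.50 and 4.62 in FBMSC_EV and 14.3, 42.2 and 9.57 in ABPC_EV. After scaling it was 11.2, 6.60 and 12.03 in PBS, 10.1, 6.30 and 4.89 in FBMSC_EV and 9.53, 19.8 and 3.85 in ABPC_EV. The ABPC_EV group held the highest and the lowest scaled ITGA2B value.

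ITGB3 as deposited was 1.08, 0.835 and 2.70 per-million units in PBS, 2.64, 3.22 and 1.90 in FBMSC_EV and 5.75, 15.5 and 5.24 in ABPC_EV. Scaled ITGB3 was 3.31, 1.80 and 3.57, then 2.71, 2.71 and 2.01, then 3.83, 7.24 and 2.11 in the same order. Only ABPC_EV replicate 2 stood clear of the other libraries. The ratio of ITGA2B to ITGB3, which no scaling changes, was 3.47 ± 0.173 in PBS, 2.83 ± 0.776 in FBMSC_EV and 2.35 ± 0.468 in ABPC_EV (SD, n = 3 each), and lay between 1.83 and 3.72 in all libraries. It was lower in every ABPC_EV library (1.83 to 2.73) than in every PBS library (3.37 to 3.67), and FBMSC_EV overlapped with both. How often other pairs of genes separate in this way was not tested.

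P2RY12, the ADP receptor and the target of clopidogrel, was 0.189, 0.179 and 0.564 per-million units as deposited in PBS, 0.370, 0.616 and 0.121 in FBMSC_EV and 1.45, 1.53 and 0.662 in ABPC_EV. Its scaled values were 0.581, 0.387 and 0.745 in PBS, 0.381, 0.517 and 0.128 in FBMSC_EV and 0.964, 0.717 and 0.266 in ABPC_EV. These correspond to 6 to 64 reads per library, and the scaled groups overlapped.

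CLEC1B, a lectin-like receptor for podoplanin that signals through SYK, was 0.904, 0.855 and 1.04 per-million units as deposited in PBS, 2.34, 0.923 and 0.212 in FBMSC_EV and 2.67, 3.32 and 5.13 in ABPC_EV. After scaling it was 2.77, 1.84 and 1.38 in PBS, 2.41, 0.775 and 0.224 in FBMSC_EV and 1.78, 1.55 and 2.06 in ABPC_EV. CLEC1B had the widest scaled range of the 10 genes, 12.4-fold, and its lowest library, FBMSC_EV replicate 3, held 4 reads. Unlike the other genes, it was highest in replicate 3 among the deposited ABPC_EV values.

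TREML1, a receptor kept in the membrane of alpha granules and brought to the surface on activation, was 2.49, 3.03 and 5.15 per-million units as deposited in PBS, 7.94, 5.02 and 1.83 in FBMSC_EV and 8.29, 29.4 and 5.95 in ABPC_EV. Scaled TREML1 was 7.65, 6.54 and 6.81 in PBS, 8.17, 4.21 and 1.94 in FBMSC_EV and 5.52, 13.7 and 2.39 in ABPC_EV. The 3 PBS libraries were close together at 6.997 ± 0.580 (SD, n = 3), and the EV libraries lay on both sides of them.

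TUBB1 as deposited was 6.45, 5.98 and 11.1 per-million units in PBS, 13.7, 11.7 and 3.42 in FBMSC_EV and 32.9, 72.4 and 15.8 in ABPC_EV. After scaling it was 19.8, 12.9 and 14.6 in PBS, 14.1, 9.82 and 3.61 in FBMSC_EV and 21.9, 33.8 and 6.36 in ABPC_EV. As for TREML1, the lowest value came from FBMSC_EV replicate 3 and the highest from ABPC_EV replicate 2.

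**Figure D2:**
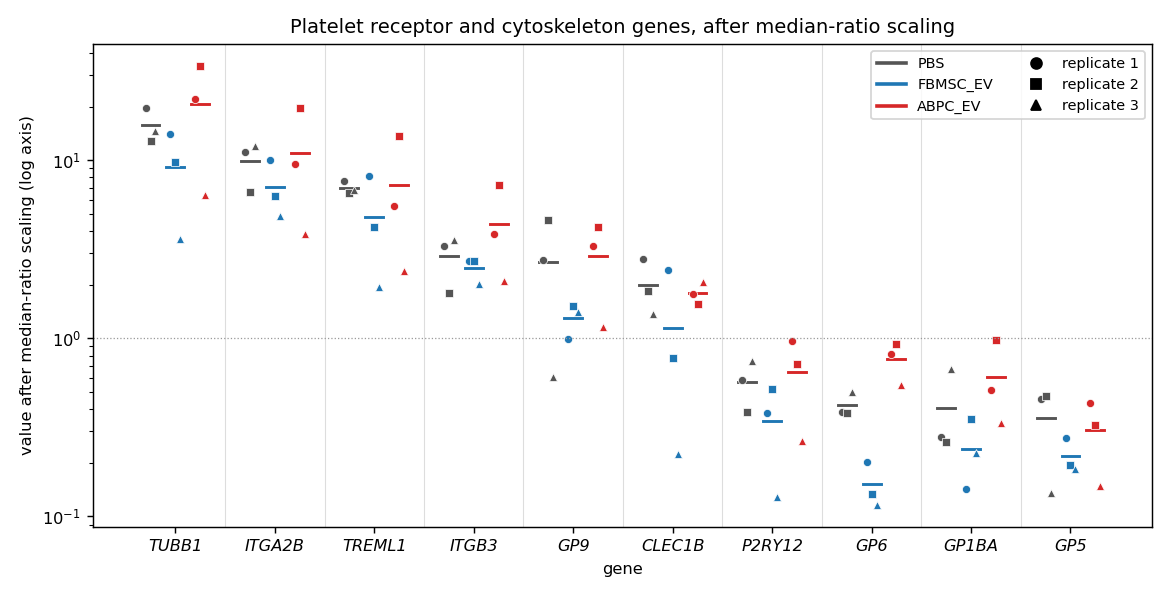
The same 10 genes after median-ratio scaling (log axis), with 1 point per library and a bar at each group mean. The groups overlap for 9 genes, and GP6 alone shows 3 separate groups, from 0.116 to 0.203 in FBMSC_EV, 0.382 to 0.501 in PBS and 0.549 to 0.933 in ABPC_EV.

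ABPC_EV against PBS asks whether the antler-cell EVs changed the platelet genes relative to the vehicle. As deposited, all 10 genes were higher in every ABPC_EV library than in every PBS library; among the 10596 genes tested, which include 7 of the 10, 85.4% were. The ratio of group means ran from 3.65 for GP5 to 6.74 for GP6. A gene was tested where its per-million value reached 1 in 3 or more libraries, which 7 of the 10 did; GP1BA reached it in 1 library, P2RY12 in 2 and GP5 in 0. GP6 reached it only in its 3 ABPC_EV libraries, so that it could pass only by differing. All 7 genes tested rose by limma at an adjusted p below 0.05, as did 90.9% of all genes tested, so the count does not set the platelet genes apart.

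In log2 units of the deposited value plus 1, TUBB1 rose most, by 2.02 (SE 0.51, limma adjusted p = 0.00107). ITGB3 rose by 1.87 (SE 0.39) and ITGA2B by 1.73 (SE 0.47), with limma adjusted p-values of 0.000432 and 0.00198. GP9 rose by 1.58, TREML1 by 1.50, CLEC1B by 1.25 and GP6 by 1.04. The median rise over all genes tested was 1.41, and relative to it TUBB1 stood at 0.61, ITGB3 at 0.46 and GP6 at -0.38. The low place of GP6 here and its high ratio of means differ because adding 1 compresses genes with values below 1. Without ABPC_EV replicate 2, TREML1 no longer passed (0.86, limma adjusted p = 0.0559) and the value for ITGA2B was 1.14. Taking the erythroid genes out of the total left 0 of the 7 genes past the threshold, and 0 of the 10582 genes tested in that fit, with 2 of the 7 at an unadjusted p under 0.05 and limma adjusted p-values from 0.0855 to 0.439. The share of all genes at that unadjusted p was not counted for this fit. All 7 values stayed above 0 there, at 1.26 for GP6, 1.21 for ITGB3, 1.05 for GP9, 0.90 for TUBB1, 0.68 for ITGA2B, 0.64 for CLEC1B and 0.48 for TREML1, beside a median of 0.75 for all genes. Fitted without the filter on low values, GP1BA stood at 0.81, P2RY12 at 0.74 and GP5 at 0.44, with limma adjusted p-values of 0.0256, 0.0301 and 0.0120, while TREML1 did not pass there (limma adjusted p = 0.0689); that fit called 47.9% of 24371 genes higher.

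After scaling, limma called 0 of the 7 genes and 0% of all genes tested between ABPC_EV and PBS, with 0 of the 7 genes and 1080 of all genes at an unadjusted p under 0.05. limma-voom on the recovered reads also called 0 of the 7, with 0 of the 7 at an unadjusted p under 0.05, and 1 of 10587 genes in all. The share of all genes at that unadjusted p was not counted for limma-voom. Differences were 0.39 for ITGB3, 0.31 for GP6, 0.17 for GP9, 0.13 for TUBB1, -0.06 for ITGA2B, -0.08 for CLEC1B and -0.21 for TREML1 in log2 units of the scaled value plus 1. The intervals were wide: the 95% interval for TUBB1 ran from -1.16 to 1.42 and that for GP6 from -0.05 to 0.67, so neither a fall nor a rise of TUBB1 by a log2 of 1 lay outside it. The absence of overlap that GP6 showed in this direction was shared by 6.45% of the genes tested. GP6 was among them only through its ABPC_EV libraries, so it was selected on that group being high.

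**Figure D3:**
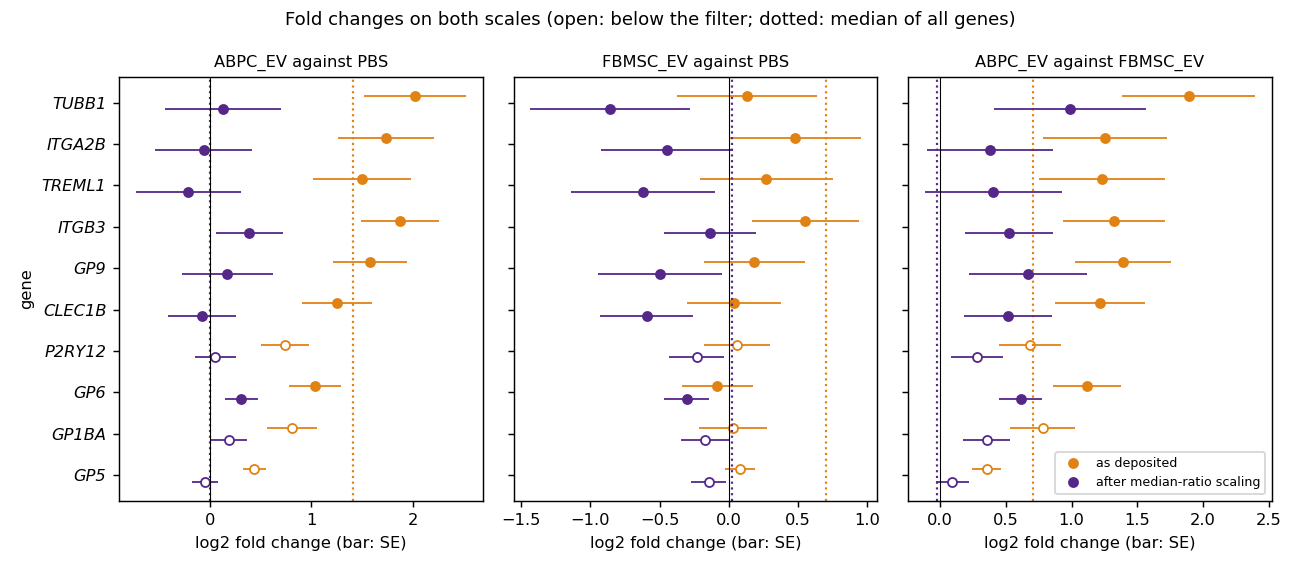
limma log2 fold changes with their standard errors for the 10 genes in the 3 comparisons, as deposited and after median-ratio scaling; open circles are the 3 genes that did not reach a value of 1 in 3 libraries, and dotted lines mark the median of all genes tested. As deposited the 7 tested genes of ABPC_EV against PBS scatter around the all-gene median of 1.41, and after scaling they scatter around 0. The open circles come from the fit without the filter, whose own median is not drawn. It was 0.5 as deposited for ABPC_EV against PBS.

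FBMSC_EV against PBS asks the same of the other EVs. As deposited, every one of the 10 genes overlapped between these groups, whereas 50.9% of all genes tested were higher in all FBMSC_EV libraries than in all PBS libraries. limma called 0 of the 7 tested genes as higher, against 0.255% of all genes, and 0 of the 7 had an unadjusted p under 0.05, against 43.8% of all genes. Without PBS replicate 3 the share of all genes called higher was 43.3%, and 0 of the 7 passed there too. The values were 0.55 for ITGB3, 0.48 for ITGA2B, 0.27 for TREML1, 0.19 for GP9, 0.13 for TUBB1, 0.04 for CLEC1B and -0.08 for GP6, with limma adjusted p-values from 0.224 to 0.924. All 7 lay below the median of all genes, 0.70, and the median of the 7 was 0.19.

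After scaling, all 7 tested genes and the other 3 had negative values in FBMSC_EV relative to PBS, so that the sign of 6 tested genes turned with the scale. limma called 0 of the 7 and 0% of all genes tested, with 0 of the 7 and 512 of all genes at an unadjusted p under 0.05; limma-voom on recovered reads called 0, with 1 of the 7 at an unadjusted p under 0.05. For limma-voom, the share of all genes at that unadjusted p was not counted. TUBB1 stood at -0.86 (95% interval -2.15 to 0.43), TREML1 at -0.62, CLEC1B at -0.59, GP9 at -0.50, ITGA2B at -0.45, GP6 at -0.30 and ITGB3 at -0.14. The median of the 7 was -0.50 against 0.02 for all genes. The 7 genes varied together across libraries and are not independent of each other. The FBMSC_EV libraries had less GP6 than any PBS library, as in 4.71% of the genes tested.

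Between the EV groups, 8 of the 10 genes, and 5 of the 7 tested, were higher as deposited in every ABPC_EV library than in every FBMSC_EV library, against 50.5% of all genes tested; ITGA2B and TREML1 overlapped. GP6 was the 1 gene of the 7 that limma called, at 1.12 (SE 0.26, adjusted p = 0.0411), and 0.585% of all genes tested were called higher. GP6 entered this test only because its ABPC_EV libraries reached a value of 1, so the call was selected on that group being high. It was lost without the filter (limma adjusted p = 0.108), with a pseudocount of 0.5 (0.0623) and with the 2 groups alone (0.0698). The other 6 had larger values, from 1.21 for CLEC1B to 1.89 for TUBB1, with limma adjusted p-values of 0.0696 to 0.0742 and unadjusted p-values below 0.05 for all 7, as for 48.3% of all genes tested. The count was unstable to single libraries: it was 0 without PBS replicate 1 or FBMSC_EV replicate 3, where GP6 was lost at limma adjusted p-values of 0.0650 and 0.0736 and 0.416% and 0.781% of all genes were called higher. It was 1 without ABPC_EV replicate 2, 2 without ABPC_EV replicate 3, 3 without PBS replicate 2 or FBMSC_EV replicate 1, 4 without FBMSC_EV replicate 2, 5 without PBS replicate 3 and 6 without ABPC_EV replicate 1. The share of all genes called higher in those fits was 4.0%, 0.485%, 1.69%, 0.956%, 3.89%, 25.6% and 45.6% (per library in the order ABPC_EV 2, ABPC_EV 3, PBS 2, FBMSC_EV 1, FBMSC_EV 2, PBS 3, ABPC_EV 1). Fits without an ABPC_EV library tested 6 of the 10 genes and did not test GP6, so their counts are of other genes.

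After scaling, the 7 genes had values between 0.38 (ITGA2B) and 0.99 (TUBB1) in ABPC_EV relative to FBMSC_EV, with a median of 0.53 against -0.02 for all genes. limma called 0 of the 7 and 0% of all genes tested, with 1 of the 7 and 569 of all genes at an unadjusted p under 0.05, and limma-voom called 0 with the same number of the 7 at an unadjusted p under 0.05. All genes at that unadjusted p were not counted for limma-voom. The 1 gene in the limma test was GP6, at 0.61 (95% interval 0.25 to 0.97, unadjusted p = 0.00375, adjusted p = 0.748). GP6 was in this fit only because its ABPC_EV libraries reached 1 as deposited, so its values were selected on that group being high. GP6 without overlap in this direction was shared by 4.23% of the genes tested. The ratio of scaled means for GP6 was 5.08, and on the recovered reads limma-voom gave a log2 difference of 2.18 (adjusted p = 0.556). ABPC_EV against PBS and FBMSC_EV against PBS use the same PBS libraries, and each EV group enters 2 of the 3 comparisons.

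The make-up of the gene set was examined as each gene's percentage of the 10 genes' summed per-million value, a quantity that no scaling changes. TUBB1 accounted for 37.3% ± 2.58 in PBS, 32.4% ± 6.87 in FBMSC_EV and 39.6% ± 6.09 in ABPC_EV (SD, n = 3 each). ITGA2B took 23.5% ± 5.47, 27.5% ± 5.02 and 21.1% ± 2.28 in the same order, and TREML1 16.8% ± 1.36, 16.6% ± 3.82 and 13.4% ± 2.71. The libraries of all groups overlapped in these shares, except that ITGA2B took 23.73% or more in FBMSC_EV and 23.72% or less in ABPC_EV.

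GP6 made up 1.02% ± 0.223 of the sum in PBS, 0.603% ± 0.160 in FBMSC_EV and 1.89% ± 0.883 in ABPC_EV. Its share ran from 0.780% to 1.22% in PBS, from 0.505% to 0.788% in FBMSC_EV and from 1.12% to 2.85% in ABPC_EV, so that the EV groups did not overlap and each overlapped with PBS at 1 end. Relative to the integrin chain, the ratio of ITGA2B to GP6 was 23.5 ± 5.95 in PBS, 46.3 ± 3.80 in FBMSC_EV and 13.3 ± 7.22 in ABPC_EV (SD, n = 3 each). With 3 libraries against 3, an exact two-sided permutation test cannot give a p below 0.1.

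**Figure D4:**
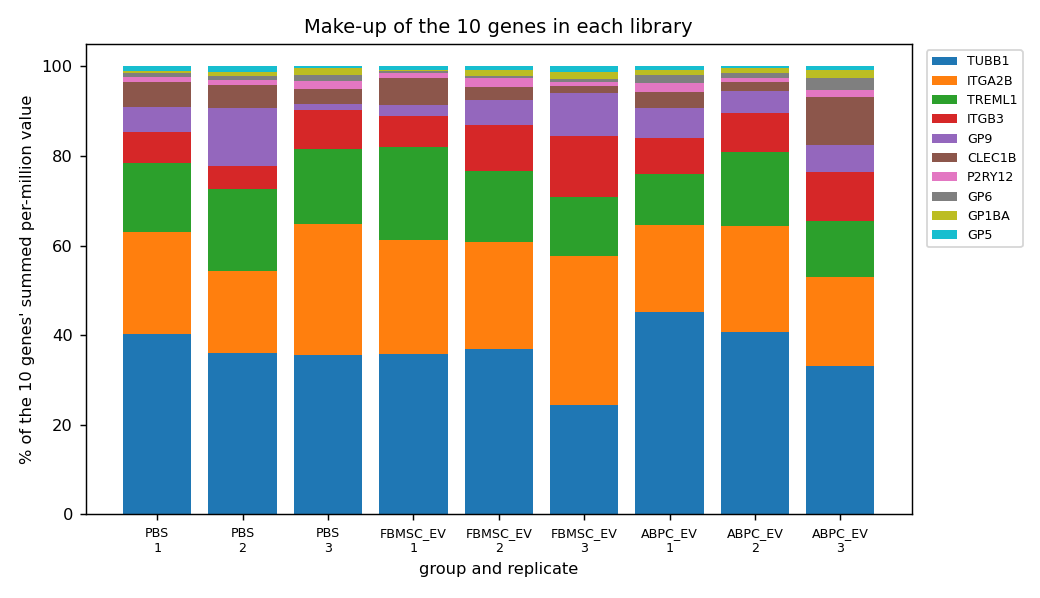
Percentage of the 10 genes' summed per-million value taken by each gene, in 1 stacked bar per library. TUBB1, ITGA2B and TREML1 make up most of every bar, and the GP9 band is widest in PBS replicate 2 (12.9%).

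The summed scaled value of the 10 genes was 49.1, 35.8 and 41.1 in PBS replicates 1 to 3, 39.4, 26.5 and 14.7 in FBMSC_EV and 48.6, 83.3 and 19.2 in ABPC_EV. ABPC_EV thus held both the highest library and, in replicate 3, the second lowest, and its mean of 50.4 ± 32.0 spanned the PBS mean of 42.0 ± 6.71 and the FBMSC_EV mean of 26.9 ± 12.4 (SD, n = 3 each). The genes tended to be high or low together in a library. Over the 45 pairs, Pearson's r of the scaled log2 values across 9 libraries had a median of 0.535, with 27 pairs above 0.5 and 2 below 0. The highest were TREML1 with TUBB1 at 0.924 and ITGA2B with TREML1 at 0.923. Without ABPC_EV replicate 2 the median was 0.475, with 22 pairs above 0.5.

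The pairs did not follow the protein complexes closely. ITGA2B and ITGB3, the chains of 1 integrin, had an r of 0.882, and GP9 with GP5 reached 0.847. GP1BA, of the same complex, had -0.055 with GP5 and an r of 0.851 with ITGB3. TUBB1 was closest to the mean of the other 9 genes (0.981), and CLEC1B (0.461) and GP9 (0.467) were farthest from it. These correlations are descriptive: the points share libraries and scaling factors, and GP6, GP1BA, GP5 and P2RY12 add counting error at their low read numbers.

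**Figure D5:**
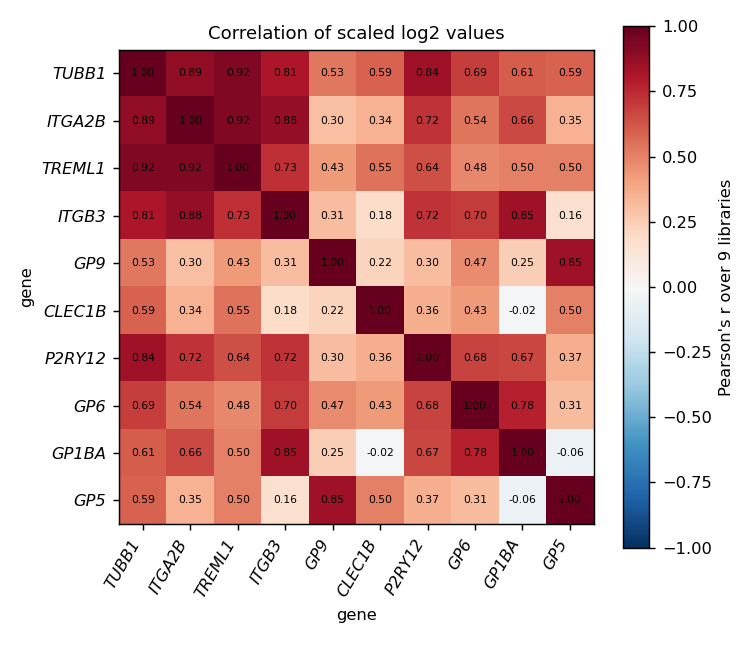
Pearson's r across the 9 libraries between the scaled log2 values of each pair of the 10 genes, from blue for negative to red for positive. TUBB1, ITGA2B, TREML1 and ITGB3 form a block with r from 0.73 to 0.924, and GP9 pairs most strongly with GP5.

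Genes outside the set were ranked by the correlation of their scaled log2 values with the mean profile of the 10 genes over 9 libraries, among 9211 tested genes with a gene symbol, whose median r was -0.02. The 8 most alike were MPIG6B (0.992), ESAM (0.948), C12H2orf88 (0.945), STX1A (0.941), AQP3 (0.921), GP1BB (0.915), ANAPC5 (0.906) and RSU1 (0.898). MPIG6B encodes an inhibitory receptor of megakaryocytes and platelets, ESAM a cell adhesion molecule of platelets and endothelium, and GP1BB the remaining chain of the von Willebrand factor receptor. MPIG6B was 14.6, 9.47 and 11.4 scaled units in PBS, 8.02, 6.31 and 3.58 in FBMSC_EV and 14.6, 25.7 and 5.25 in ABPC_EV. GP1BB was 26.4, 18.9 and 15.7, then 19.1, 11.5 and 9.31, then 15.5, 39.6 and 9.20 scaled units in the same order, above each of the other chains of its complex in every library. Both were highest in ABPC_EV replicate 2, as were 6 of the 10 genes. Without ABPC_EV replicate 2, r was 0.986 for MPIG6B and between 0.825 and 0.949 for the other 7.

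Of 24 other platelet receptors and surface proteins, 15 were tested. As deposited, limma called 14 higher and 0 lower in ABPC_EV than in PBS, beside 90.9% of all genes tested called higher. It called 0 between FBMSC_EV and PBS, beside 0.255% of all genes called higher. Beside 0.585% of all genes, it called 1 of the 15 higher in ABPC_EV than in FBMSC_EV. That gene, MPIG6B (1.93, limma adjusted p = 0.0494), is named because the count was 1. In FBMSC_EV against PBS, 4 of the 15 had an unadjusted p under 0.05, beside the 43.8% of all genes. The 3 most abundant were CD9, ITGB1 and PECAM1; the rise of the integrin chain ITGB1 between PBS and ABPC_EV was 2.30 (limma adjusted p = 0.000417), and its scaled difference was 0.38 (limma adjusted p = 0.568). CD9, a tetraspanin, rose by 1.42 as deposited (limma adjusted p = 0.00917) and stood at -0.58 after scaling (limma adjusted p = 0.741). PECAM1, an inhibitory adhesion receptor, rose by 2.003 (limma adjusted p = 0.000439), with a scaled difference of 0.08. Their scaled medians lay on the same side of the all-gene median as those of the 10 genes: 0.08 for ABPC_EV against PBS, -0.30 for FBMSC_EV against PBS and 0.23 for ABPC_EV against FBMSC_EV. The median r of these 15 with the mean profile of the 10 genes was 0.551.

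Downstream of the receptors, 20 of 21 signalling genes were tested, among them FCER1G, the partner of GP6. As deposited, limma called 19 higher and 0 lower in ABPC_EV than in PBS, beside 90.9% of all genes tested called higher. It called 0 in the other comparisons. There, 17 (FBMSC_EV against PBS) and 6 had an unadjusted p under 0.05, beside 43.8% and 48.3% of all genes tested. FCER1G rose by 1.53 as deposited (limma adjusted p = 0.00391) and stood at -0.49 after scaling (limma adjusted p = 0.708). RAP1A, a small GTPase on the path to integrin activation, was the most abundant and had a deposited difference of -0.02 (limma adjusted p = 0.974) and a scaled difference of -2.04 (limma adjusted p = 0.134). The scaled medians of the 20 genes were -0.09, 0.04 and -0.14 in the order of the comparisons above, and their median r with the profile of the 10 genes was 0.241.

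Of 28 genes of the megakaryocyte and platelet cytoskeleton, 26 were tested. As deposited, limma called 24 higher and 0 lower in ABPC_EV than in PBS, beside 90.9% of all genes tested called higher. It called 0 in the other comparisons. There, 15 (FBMSC_EV against PBS) and 10 had an unadjusted p under 0.05, beside 43.8% and 48.3% of all genes tested. The scaled medians of the 26 genes were -0.13, -0.06 and -0.11, whereas TUBB1 stood at 0.13, -0.86 and 0.99 in the same comparisons. Actin (ACTB) rose by 2.09 as deposited (limma adjusted p = 0.000426) and had a scaled difference of 0.05. Many cytoskeletal and signalling genes are expressed in every blood cell. Among 14 megakaryocyte transcription factors, 11 were tested and 10 were called higher as deposited between ABPC_EV and PBS, beside 90.9% of all genes tested. The scaled medians of the 11 were -0.10, 0.02 and -0.10. In the other comparisons limma called 0 of the 11 as deposited. At an unadjusted p under 0.05 were 6 (FBMSC_EV against PBS) and 5, beside 43.8% and 48.3% of all genes. The median r with the profile of the 10 platelet genes was 0.243 for the cytoskeletal genes and 0.172 for the transcription factors.

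The list of platelet granule proteins had 19 of 23 genes tested. All 19 were called higher as deposited between ABPC_EV and PBS, beside 90.9% of all genes tested. Between FBMSC_EV and PBS 0 were called, with 10 at an unadjusted p under 0.05, beside 43.8% of all genes. Between ABPC_EV and FBMSC_EV 3 were called higher, beside 0.585% of all genes. The 3 were PF4V1, THBS1 and VWF, named because the count was small, and the median r of the 19 with the profile of the 10 genes was 0.326. As deposited, 6 endothelial markers with VWF among them summed to 0.501 to 0.689 in PBS and to 1.52, 0.744 and 0.483 in FBMSC_EV. VWF thus passed the filter only with ABPC_EV libraries, so its call was selected on that group being high. Whether this holds for PF4V1 and THBS1 was not tested. The most abundant of the list were TMSB4X, SRGN and PPBP. In ABPC_EV relative to PBS they rose by 1.71, 1.43 and 1.95 as deposited. Their scaled differences there were -0.33, -0.61 and -0.07. After scaling, limma called 0 genes of any of these 5 lists in any comparison, with 0 to 3 genes of a list at an unadjusted p under 0.05 in each. The share of all genes at that unadjusted p was 10.2% for ABPC_EV against PBS. It was 4.83% for FBMSC_EV against PBS and 5.37% for ABPC_EV against FBMSC_EV.

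After scaling, marker sums of other cells differed between groups without overlap for the erythroid list alone. The summed scaled value of 14 erythroid markers was 1170600 to 2851300 in PBS, 696250 to 929970 in FBMSC_EV and 303560 to 551230 in ABPC_EV. These markers made up most of each fixed total, so their scaled sums largely restate the scaling factors, which did not overlap between groups. As deposited, the erythroid sums were 886000 to 929670 in PBS, 826930 to 878870 in FBMSC_EV and 712040 to 827820 in ABPC_EV. The EV groups thus overlapped there. For 10 neutrophil markers the scaled sums were 529 to 2352, 620 to 3340 and 420 to 1182, and for 6 endothelial markers 0.910 to 1.66, 0.511 to 1.56 and 1.55 to 2.84, in the same order, with overlap. Monocyte (280 to 457, 287 to 980, 259 to 337), T cell (105 to 153, 84.9 to 194, 114 to 295), B cell (179 to 347, 80.4 to 219, 82.6 to 241) and NK and cytotoxic scaled sums (124 to 365, 253 to 644, 229 to 419) overlapped as well. As deposited, monocyte, T cell and NK and cytotoxic sums were lower in every PBS library than in every EV library. Of single genes tested, 85.4% (ABPC_EV) and 50.9% (FBMSC_EV) were higher than PBS in this way. The part of these cells in the values of the 10 genes was not tested.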

How the data were processed

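Libraries of whole blood total RNA from 9 animals were prepared with NEBNext Ultra reagents and read from both ends on an Illumina platform, per the labels' protocols; the build was Mmul_10 per the submitters' processing notes. The aligner and the counter were not given in the sources used here. Values deposited by the authors are log2 of a per-million value plus 0.5, for 24371 genes, since subtracting 0.5 from the inverse gave sums of 999999 to 1000001 per library. The test planned for counts was replaced because the values are not counts. Relative read numbers were recovered per gene as whole multiples: of 21551 genes above 0 in 2 or more libraries, 95.9% came out whole within 0.001, including all 10 genes described.

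The rule for named genes took all 10 genes whatever their values, at most the 3 most abundant of each list by mean level for naming, and the 8 tested genes with a symbol most alike to the mean profile. Outside this rule, PF4V1, THBS1 and VWF were named because limma called them, and MPIG6B was named in its list for the same reason. The genes and lists were chosen with earlier results of these data known. limma 3.58.1 in R 4.3.3, with a trend, was fitted to log2(value + 1) for the 10596 genes that reached a value of 1 in 3 libraries, with all 9 libraries and group as the only term, as deposited and after division by median-ratio factors. The Benjamini-Hochberg adjustment covered all genes tested, and the threshold was 0.05. The 3 genes below the filter were fitted without it and are given by value. The filter, the median-ratio scaling and the limma fit for ABPC_EV against PBS were tested on simulated reads. The recovery of reads, limma-voom and the fits as deposited were not tested in this way. The main fit had no replicate block because the labels do not say that a number marks a shared animal, litter or day. After scaling, deviations from the group means had correlations of -0.248 to 0.282 between same-numbered libraries of different groups. Between differently numbered libraries they were -0.418 to 0.35. These correlations were not computed as deposited. Alternatives were another pseudocount, no filter, a replicate block, the 2 groups alone, each library left out, the trimmed mean of M values (own code, without weights), limma-voom on recovered reads and, as deposited, removal of the erythroid genes. Gene symbols are those of the table, all 10 of which matched both name tables; no coordinates are given because the RefSeq table is of another assembly.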

Additional observations from a re-analysis of the deposited data

How the results depend on the processing

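After scaling, 0 of the 5 to 10 genes tested in a fit passed the threshold in any comparison under any alternative run. Of all genes, 0% to 0.0855% were called higher there, and at most 163 of 10524 lower. As deposited, FBMSC_EV against PBS also stayed at 0, beside 0% to 43.3% of all genes called higher. With the 2 groups alone, 0 of 5 genes tested passed in that comparison, beside 31.5% of 8623 genes. For ABPC_EV against PBS as deposited, 7 genes passed, 9 of 10 without the filter, 5 to 7 with each library left out (GP6 is not tested without an ABPC_EV library) and 0 with the erythroid genes taken out, beside 90.9%, 47.9%, 82.5% to 92.0% and 0% of all genes called higher. For ABPC_EV against FBMSC_EV as deposited, 1 gene passed, beside 0.585% of all genes called higher. The count was 0 with a pseudocount of 0.5, without the filter, with the 2 groups alone or without the erythroid genes. The shares of all genes called higher in these were 0.396%, 0.041%, 0.353% and 0%. With each library left out, 0 to 6 passed, beside 0.416% to 45.6% of all genes. The replicate block gave 5 there, with 3389 of 10596 genes (32.0%) called higher in place of 62, and changed no other count of these genes. Its cause was not tested, and the labels state no pairing.

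Signs turned only for values that did not pass. In FBMSC_EV against PBS as deposited, removal of the erythroid genes gave -0.21 for GP9, -0.083 for ITGA2B, -0.75 for CLEC1B, -0.35 for TREML1 and -0.53 for TUBB1, and a pseudocount of 0.5 gave -0.0087 for CLEC1B. With libraries left out there, GP6 ranged from -0.14 to 0.0052, GP9 -0.0634 to 0.49, CLEC1B -0.34 to 0.39, TREML1 -0.10 to 0.73 and TUBB1 -0.19 to 0.67. In ABPC_EV against PBS after scaling, the ranges were -0.34 to 0.59 for GP9, -0.56 to 0.47 for ITGA2B, -0.23 to 0.11 for CLEC1B, -0.75 to 0.29 for TREML1 and -0.34 to 0.77 for TUBB1, and limma-voom with 10 reads in 3 libraries, an alternative chosen after seeing the data, gave -0.0678 for P2RY12. Between the EV groups after scaling, ITGA2B ranged from -0.13 to 0.91 and TREML1 -0.14 to 0.90. The cause of these turns was not tested. edgeR and DESeq2 were not run because the deposited unit is not counts. Depth limits GP6 most, with 3 to 10 reads in each PBS and FBMSC_EV library.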
